A study of Mus musculus with 6 samples.

Results

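The BCL2 family of apoptosis regulators was examined here as 10 genes, chosen by gene name, in RNA of 889 cells. All 10 names (Bcl2, Bcl2l1, Mcl1, Bax, Bak1, Bcl2l11, Bbc3, Pmaip1, Bid and Bad) were found once among the 34745 genes of the files, and 9 of them had more than 500 counts over the 6 libraries and were tested. The 889 line (889-DTC) is a murine lung cancer line of C57BL/6 origin. Cells expressing Cas9 with a control sgRNA (sg-con, 3 libraries) were compared with cells expressing Cas9 with kiaa1522 sgRNA (sg-kiaa1522, 3 libraries, labelled as KIAA1522-downregulated) to find the genes that change upon depletion of KIAA1522. According to the study's methods, sgRNAs were delivered by lentivirus, the control vector carried an sgRNA against EGFP, and transduced cells were kept by puromycin selection or by sorting. The labels name no drug or cytokine treatment for either group. Which of the kiaa1522 sgRNAs these cells carried, the time after transduction and whether a culture was 1 clone are not given in the sources used here. Nothing in the labels says that the 3 libraries of a group came from separate cultures, so p-values measure the spread between these libraries, which may be technical.

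The mitochondrial pathway of apoptosis is decided by interactions within this family. Guardian proteins (BCL2, BCL-XL, which Bcl2l1 encodes, and MCL1) hold the effectors BAX and BAK1 in check. BH3-only proteins (BIM from Bcl2l11, PUMA from Bbc3, NOXA from Pmaip1, BID and BAD) bind the guardians or activate the effectors, and active BAX and BAK1 open the outer mitochondrial membrane, so that cytochrome c leaves and caspases are activated. In lung tumors, as elsewhere, this balance bears on how cells respond to platinum drugs, and NFκB, the factor the study is concerned with, is known to induce guardian genes.

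The libraries held between 12220001 and 18609376 counts. The targeted gene, listed as C77080, was higher in the libraries labelled sg-kiaa1522 (210 ± 6.38 CPM) than in sg-con (127 ± 2.93 CPM, SD, n = 3) by 0.73 on the log2 scale (adjusted p = 9.1e-05 in edgeR). Its mRNA was thus not reduced in the libraries labelled as KIAA1522-downregulated. KIAA1522 protein was not measured in these data, so they do not show whether it was depleted. Every direction below is one for the libraries labelled sg-kiaa1522. CPM is the count scaled to the TMM-normalized size of its library. Of the epithelial markers, Krt8, Krt18, Krt19 and Cdh1 were found in every library, whereas Epcam and Cldn7 had at most 1 count. The summed level of these 6 markers was 3810 to 4575 CPM in sg-con and 3218 to 3498 CPM in sg-kiaa1522, nearly all of it from the keratins. Cdh1, which encodes E-cadherin, had 52.1, 55.5 and 61.8 CPM in sg-con and 21.3, 19.3 and 21.3 CPM in sg-kiaa1522, without overlap. The 6 alveolar and airway markers summed to 43.4 to 97.6 CPM in sg-con and 24.8 to 61.3 CPM in sg-kiaa1522. Of these, Nkx2-1 varied within groups, with 970, 1096 and 227 counts in sg-con and 132, 174 and 671 counts in sg-kiaa1522. Sftpb, a surfactant protein gene, had 17.0, 24.0 and 23.9 CPM in sg-con and 12.3, 12.8 and 15.6 CPM in sg-kiaa1522, without overlap. In sg-con replicate 1 the airway gene Scgb1a1 (293 counts, against 31 and 42) and the surfactant gene Sftpc (110, against 20 and 45) stood above the other sg-con libraries. The 6 immune markers summed to at most 1.49 CPM and the 4 endothelial markers to at most 1.66 CPM in any library. The 6 fibroblast markers summed to 425 to 442 CPM in sg-con and 145 to 164 CPM in sg-kiaa1522, nearly all of it Col1a2, while Dcn, Lum and Thy1 had at most 2 counts in any library. The part of these marker differences in the results below was not tested.

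Bcl2, Bad and Bak1 fell in the libraries labelled sg-kiaa1522, and no other member passed the test. A gene was called when its p in the quasi-likelihood test of edgeR, adjusted by Benjamini-Hochberg over the 10046 tested genes, did not exceed 0.05. Of the 9 tested members 3 were lower (33.3%), against 26.3% of all tested genes. None was higher, against 26.3% of all tested genes, with 1 higher at an unadjusted p under 0.05 and 0 higher in DESeq2. In either direction, 33.3% of the members and 52.5% of all tested genes were called, so the family was not called more often than other genes. The median log2 fold change of the 9 members was 0.016, and that of all tested genes was -0.0067. The study's methods also required a doubling or halving, that is 1 on the log2 scale. This left Bad alone, lower, against 7.08% of all tested genes (4.34% lower and 2.74% higher). The CPM of the groups did not overlap for 4 members (Bcl2, Bad and Bak1 lower, Bid higher), against 61.7% of all tested genes (31.1% lower and 30.6% higher). Since RNA was measured in bulk, fewer cells with a transcript and less of it per cell cannot be told apart.

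**Figure D1:**
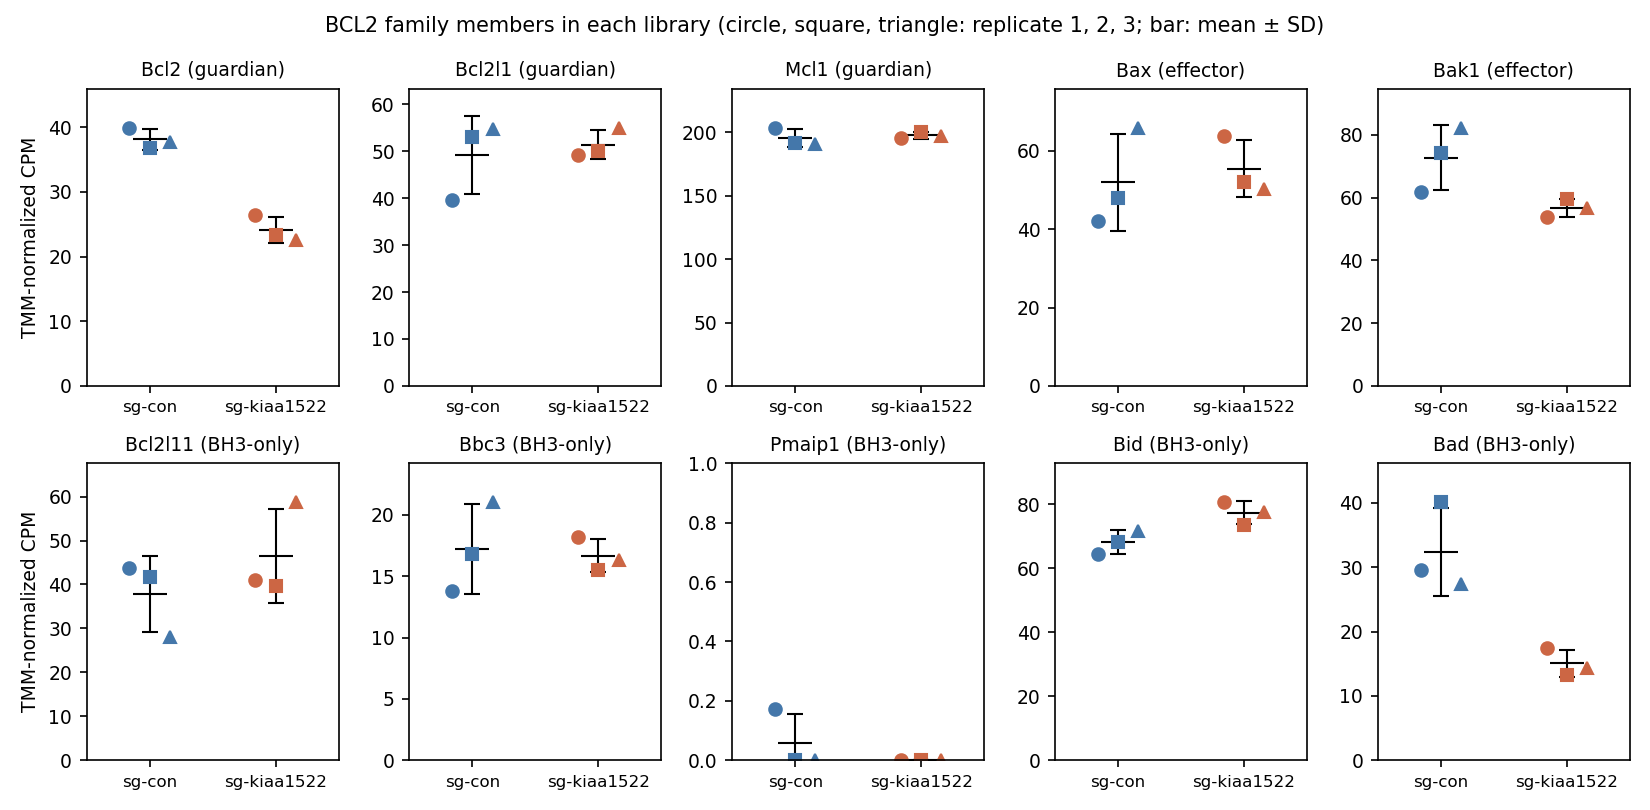
TMM-normalized CPM (vertical axis of each panel, starting at 0) of the 10 members in the 3 sg-con and 3 sg-kiaa1522 libraries, 1 symbol per library, with the mean and SD as a bar. The sg-kiaa1522 libraries lie below all sg-con libraries for Bcl2, Bad and Bak1 and above them for Bid, and Pmaip1 is near 0 throughout.

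Among the guardians, Bcl2 (ENSMUSG00000057329, GRCm38 chromosome 1 from 106538178 to 106714274, minus strand) fell by 36.7%. It had 39.9, 36.8 and 37.7 CPM in sg-con and 26.4, 23.4 and 22.6 CPM in sg-kiaa1522. The 2 groups were thus far apart relative to their spread, 38.1 ± 1.62 against 24.2 ± 2.02 CPM (SD, n = 3), with a coefficient of variation of 4.26% in sg-con. The log2 fold change was -0.66 (95% interval -0.87 to -0.45, adjusted p = 8.6e-04 in edgeR). It was called in all 12 alternative fits, and dropping 1 library at a time gave -0.73 to -0.62. The 12 fits change the test, the normalization, the filter, the replicate block or the libraries, and leave out the threshold of 1 on the log2 scale, which Bcl2 did not reach. The study names Bcl2 among the genes reduced in these same libraries, so its fall here is not independent evidence. D630008O14Rik, an antisense gene that shares 6.09% of the exon bases of Bcl2, had 0 counts in every library.

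Mcl1 (ENSMUSG00000038612, chromosome 3 from 95658788 to 95663176, plus strand), whose protein is short-lived and binds BAK1 and most BH3-only proteins, was not called. It had 204, 192 and 191 CPM in sg-con and 195, 200 and 197 CPM in sg-kiaa1522, and the groups overlapped. Its log2 fold change of 0.016 (95% interval -0.12 to 0.15, adjusted p = 0.83 in edgeR) had the narrowest interval of the 9 members. It had the smallest spread too, with a coefficient of variation of 3.67% in sg-con and 1.32% in sg-kiaa1522. Bcl2l1 (ENSMUSG00000007659, chromosome 2 from 152780668 to 152831728, minus strand) had 39.7, 53.1 and 54.8 CPM in sg-con and 49.1, 50.1 and 55.0 CPM in sg-kiaa1522. Its low value lay in sg-con replicate 1, and the groups overlapped. Between groups it differed by 0.063 on the log2 scale (95% interval -0.24 to 0.37, adjusted p = 0.71 in edgeR), an interval that leaves room for a change of up to 1.29-fold upwards or to 0.846-fold downwards. Among the guardians, therefore, only Bcl2 was called, and the differences between Bcl2 and the other guardians were not tested.

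The 250 bases before the transcription start of Bcl2 and Bad, the 2 members called in all 12 alternative fits, and of Mcl1, which was not called, are shown because the study concerns NFκB, a factor that binds promoters. They are from RefSeq (GRCm38.p6), 5′ to 3′ on the strand of the gene, with every match to a searched motif in capitals. The windows cover chr1:106714291-106714540 (minus strand), chr19:6941611-6941860 (plus strand) and chr3:95658471-95658720 (plus strand), and none of them holds annotated exon bases in GENCODE M21. The bases just after the RefSeq start occurred in a GENCODE M21 transcript for Bad but not for Bcl2 or Mcl1. In GENCODE M21, Bcl2 and Mcl1 begin further downstream.
Bcl2: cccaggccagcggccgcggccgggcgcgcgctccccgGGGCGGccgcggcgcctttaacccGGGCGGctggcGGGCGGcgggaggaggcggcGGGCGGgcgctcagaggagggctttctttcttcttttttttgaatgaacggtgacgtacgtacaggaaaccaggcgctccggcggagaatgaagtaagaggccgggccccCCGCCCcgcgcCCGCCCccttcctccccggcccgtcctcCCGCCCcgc
Bad: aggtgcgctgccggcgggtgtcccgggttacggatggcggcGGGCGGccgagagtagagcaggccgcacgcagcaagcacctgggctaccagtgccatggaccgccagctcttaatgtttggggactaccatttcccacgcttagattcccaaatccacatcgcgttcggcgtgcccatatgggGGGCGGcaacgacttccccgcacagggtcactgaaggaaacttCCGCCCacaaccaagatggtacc
Mcl1: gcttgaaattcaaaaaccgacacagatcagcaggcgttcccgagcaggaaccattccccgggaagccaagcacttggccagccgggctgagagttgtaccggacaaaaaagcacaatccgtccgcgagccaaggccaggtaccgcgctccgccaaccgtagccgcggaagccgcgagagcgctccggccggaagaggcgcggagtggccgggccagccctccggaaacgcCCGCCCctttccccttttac
The motifs searched were the κB consensus of NFκB and the p53 half-site, both given by name. A GC box was GGGCGG. The CCAAT box was also searched, as was the E-box by the letters CACGTG. The letters of the TATA box were TATAAA. Each was searched on both strands, and matches that overlap were all counted. All capitals shown are GC boxes, with 7 matches for Bcl2, 3 for Bad and 1 for Mcl1. Of 32851 windows of this length in the RefSeq table, 32.7% hold a GC box, as do 60.6% of the 9826 windows of tested genes. The κB consensus, found in 7.25% of all windows and 8.82% of those of tested genes, matched windows of Bbc3 and Bcl2l1 and none of the 3 shown. The Bcl2l1 window with the match lies wholly in annotated exons of Bcl2l1. The p53 half-site (7.13% of all windows and 5.67% of those of tested genes) matched that of Bax, 201 bases before its start. Bad, Bbc3 and Bcl2l11 had a CCAAT box (33.8% of all windows and 35.7% of those of tested genes), Bax and Bbc3 an E-box (6.02% and 8.62%) and no member a TATA box (12.4% and 5.91%). The CCAAT box of Bad lies in a window not shown, of whose 250 bases 230 are annotated exon bases of Bad or Gpr137. The 9 tested members had 15 annotated starts in the table, Bad with 2 of them, and only the first is shown. No window of Bak1 is printed, because its 250 bases lie wholly in annotated exons of Bak1 or Ggnbp1. A match shows letters in a window and not that a factor was bound.

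Of the effectors, Bak1 (ENSMUSG00000057789, chromosome 17 from 27019810 to 27029009, minus strand) was lower by 22%. It had 61.8, 74.2 and 82.3 CPM in sg-con and 53.8, 59.7 and 56.7 CPM in sg-kiaa1522. The groups did not overlap, but sg-con replicate 1 lay close to the highest sg-kiaa1522 library. On the log2 scale the change was -0.36 (95% interval -0.62 to -0.096, adjusted p = 0.030 in edgeR). This call was lost when sg-con replicate 2 or 3 or any sg-kiaa1522 library was left out, with adjusted p between 0.054 and 0.086 in edgeR, and it held without sg-con replicate 1 (adjusted p = 0.0028). Ggnbp1, an antisense gene, shares 18.2% of the exon bases of Bak1 and had a log2 fold change of 0.17 (adjusted p = 0.12 in edgeR).

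Bax (ENSMUSG00000003873, chromosome 7 from 45461697 to 45466898, minus strand) had 42.1, 48.0 and 65.9 CPM in sg-con and 63.8, 52.2 and 50.4 CPM in sg-kiaa1522. The libraries of each group spread widely and the groups overlapped. The coefficient of variation in sg-con was 23.9%, the largest of the 9 members. Its log2 fold change was 0.091 (95% interval -0.32 to 0.50, adjusted p = 0.69 in edgeR). Gm45808, a gene on the same strand that was not analysed here, shares 12.2% of the exon bases of Bax.

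Of the BH3-only genes only Bad was called. Bad (ENSMUSG00000024959, chromosome 19 from 6941861 to 6951899, plus strand) encodes a sensitizer that binds BCL2 and BCL-XL and that survival kinases switch off by phosphorylation. It had 29.5, 40.1 and 27.4 CPM in sg-con and 17.5, 13.3 and 14.3 CPM in sg-kiaa1522. Every sg-kiaa1522 library lay well below every sg-con library, and sg-con replicate 2 stood highest. Bad fell from 32.3 ± 6.84 to 15.0 ± 2.17 CPM (SD, n = 3), to 0.465 of its level in sg-con, with a log2 fold change of -1.11 (95% interval -1.52 to -0.71, adjusted p = 0.0015 in edgeR). This was the largest change among the 9 members and larger in size than 94.5% of all tested genes. It was called in all 12 alternative fits, and without sg-con replicate 2 it was -0.93. Gpr137, an antisense gene, shares 20.5% of the exon bases of Bad, and the sources used here do not say whether strand was used in counting. Without strand, reads from bases that such pairs share cannot be told apart. Gpr137 moved the other way, with 262, 356 and 284 counts in sg-con and 320, 475 and 457 counts in sg-kiaa1522, a log2 fold change of 0.63 (adjusted p = 0.0025 in edgeR).

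Bid (ENSMUSG00000004446, chromosome 6 from 120891930 to 120916853, minus strand) encodes the protein that, once cleaved by an initiator caspase, links death receptors to mitochondria. It had 64.3, 68.3 and 71.8 CPM in sg-con and 80.7, 73.6 and 77.7 CPM in sg-kiaa1522. The groups did not overlap, but the gap was small. Its log2 fold change of 0.18 (95% interval 0.011 to 0.35) had an adjusted p of 0.071 in edgeR, so Bid was not called. Bcl2l13, itself a family member, is antisense to Bid and shares 17.7% of its exon bases. Bcl2l11 (ENSMUSG00000027381, chromosome 2 from 128126038 to 128162547, plus strand) encodes BIM, which binds all guardians. It had 43.8, 41.8 and 28.0 CPM in sg-con and 40.9, 39.7 and 58.8 CPM in sg-kiaa1522. Replicate 3 held the lowest value in sg-con and the highest in sg-kiaa1522, and the groups overlapped. For Bcl2l11 the log2 fold change was 0.30 (95% interval -0.19 to 0.79, adjusted p = 0.27 in edgeR), the widest interval of the 9, and it was 0.090 without sg-kiaa1522 replicate 3.

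Bbc3 (ENSMUSG00000002083, chromosome 7 from 16308393 to 16318205, plus strand), a p53 target that encodes PUMA, had 13.8, 16.8 and 21.1 CPM in sg-con and 18.2, 15.5 and 16.3 CPM in sg-kiaa1522. The sg-kiaa1522 libraries lay within the range of sg-con. Between groups Bbc3 differed by -0.046 on the log2 scale (95% interval -0.42 to 0.33, adjusted p = 0.83 in edgeR). Pmaip1 (ENSMUSG00000024521, chromosome 18 from 66458533 to 66465565, plus strand), the p53 target that encodes NOXA, had 3 counts in sg-con replicate 1 and 0 in each of the other 5 libraries. It was therefore not tested, and a count of 0 allows up to 0.162 to 0.247 CPM in these 5 libraries, counting error only. Trp53 itself, named after its values were seen, had between 12 and 95 counts in a library and did not pass the filter.

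**Figure D2:**
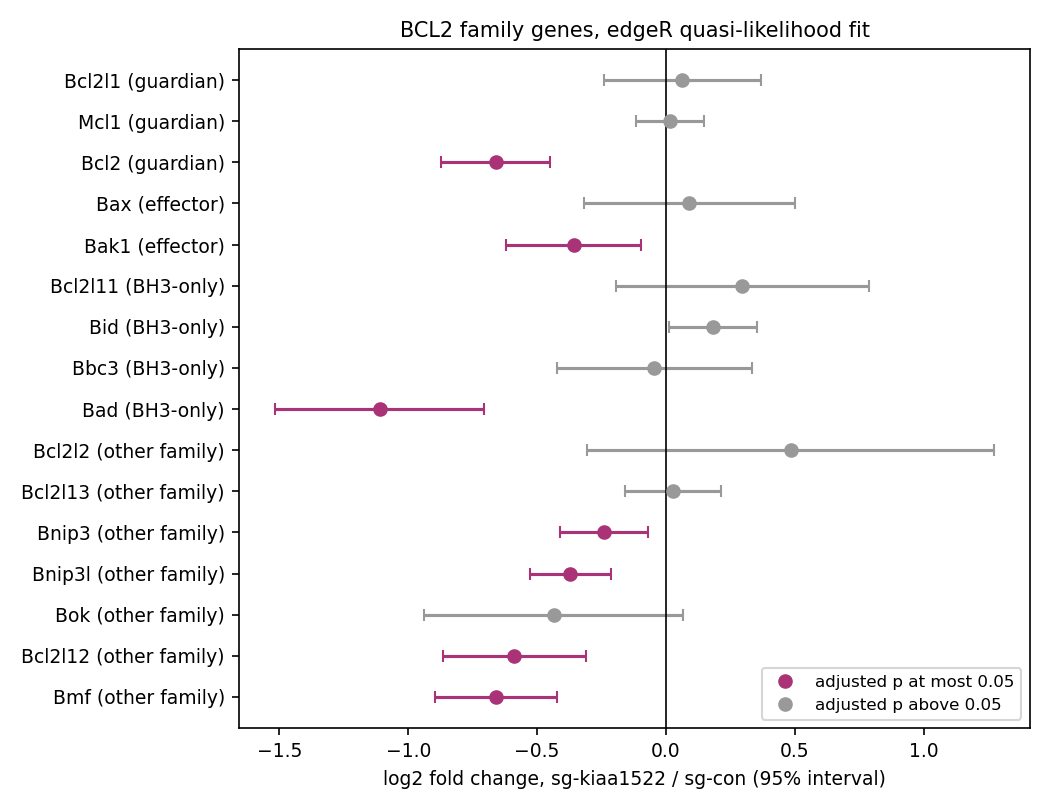
Log2 fold change (horizontal axis, sg-kiaa1522 over sg-con) with its 95% interval for the 9 tested members and the 7 tested other family genes, from edgeR's quasi-likelihood fit of 3 against 3 libraries. Bad (-1.11), Bcl2 (-0.66) and Bak1 (-0.36) are called among the members, while the intervals of Mcl1 and Bcl2l1 include 0.

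Between libraries of a group, the median coefficient of variation of the 9 members was 16.8% in sg-con, against 8.96% for all tested genes, and 8.2% in sg-kiaa1522, against 6.31%. Across the 6 libraries Bax and Bbc3 followed each other (r = 0.91 of log2 CPM), both highest in sg-con replicate 3 and, within sg-kiaa1522, in replicate 1. Bcl2 and Bad also did (r = 0.93), which in 6 libraries largely restates that both were lower in sg-kiaa1522. These r are over 6 libraries of 2 groups and are descriptions. Bcl2 had the smallest adjusted p of the members, and its log2 CPM was most like that of Pigh (r = 0.9985), 9130221H12Rik (0.9983) and Plcd1 (0.9977) over the 6 libraries, but 773 of 10045 genes had r above 0.95 with it, so these names are not particular. The 5 nearest tested genes on each side of Bcl2 had a median log2 fold change of -0.063, those around Bad -0.011 and those around Bak1 0.16, and the share called in each direction over all tested genes is 26.3%. Of these 10 genes, 4 around Bcl2 were called lower and 2 higher, 4 around Bad lower and 4 higher, and 3 around Bak1 lower and 4 higher.

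Per exon length, Mcl1 was the most abundant member and Bcl2 the least abundant of the 9. Levels were set between genes as TPM, from the counts and the summed exon length in GENCODE M21. Over the 6 libraries the means were 152 for Mcl1, 90.3 for Bax, 70.9 for Bak1, 54.4 for Bid, 29.1 for Bcl2l1, 24.2 for Bad, 21.1 for Bbc3, 14.0 for Bcl2l11 and 8.95 TPM for Bcl2. With the summed exon length, in both groups the libraries of Mcl1 lay above those of Bax, and those of Bid above those of Bcl2l1. Neighbours whose libraries overlapped in sg-con were Bax and Bak1, Bcl2l1 and Bad, and Bcl2l11 and Bcl2. In sg-kiaa1522 these were Bak1 and Bid, Bad and Bbc3, and Bbc3 and Bcl2l11. With the summed exon length, Bad was 5th in sg-con (32.4 ± 6.54 TPM) and 7th in sg-kiaa1522 (16.1 ± 2.32 TPM, SD, n = 3). Bcl2 made up 5.78 ± 0.209% of the summed TPM of the 3 guardians in sg-con and 3.68 ± 0.349% in sg-kiaa1522 (SD, n = 3). The guardians together summed to 182 to 191 TPM in sg-con and 193 to 201 TPM in sg-kiaa1522. TPM is scaled within each library and not TMM-normalized, so these sums do not show a difference between groups. Mcl1, the largest part of the sum, had a mean of 147 TPM in sg-con and 158 TPM in sg-kiaa1522. In CPM it had 195 ± 7.17 and 198 ± 2.60 (SD, n = 3). Whether the sum differed on the TMM scale was not tested. With the mean transcript length in place of the summed exons, the mean over the 6 libraries of Bid lay above that of Bak1 and that of Bcl2l11 above that of Bbc3. The ranks of Bad did not hold with the mean transcript length. Its mean in sg-con was then 43.9 TPM, below Bcl2l1 (44.7 TPM). In sg-kiaa1522 Bad had 21.0 TPM, below Bcl2l11 (30.2 TPM). In sg-con alone, Bcl2l11 (23.9 TPM) stayed below Bbc3 (25.6 TPM) on that scale. Mcl1 and Bax overlapped on it, with 118.1 to 130.5 TPM for Mcl1 and 89.1 to 135.2 TPM for Bax over the 6 libraries.

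**Figure D3:**
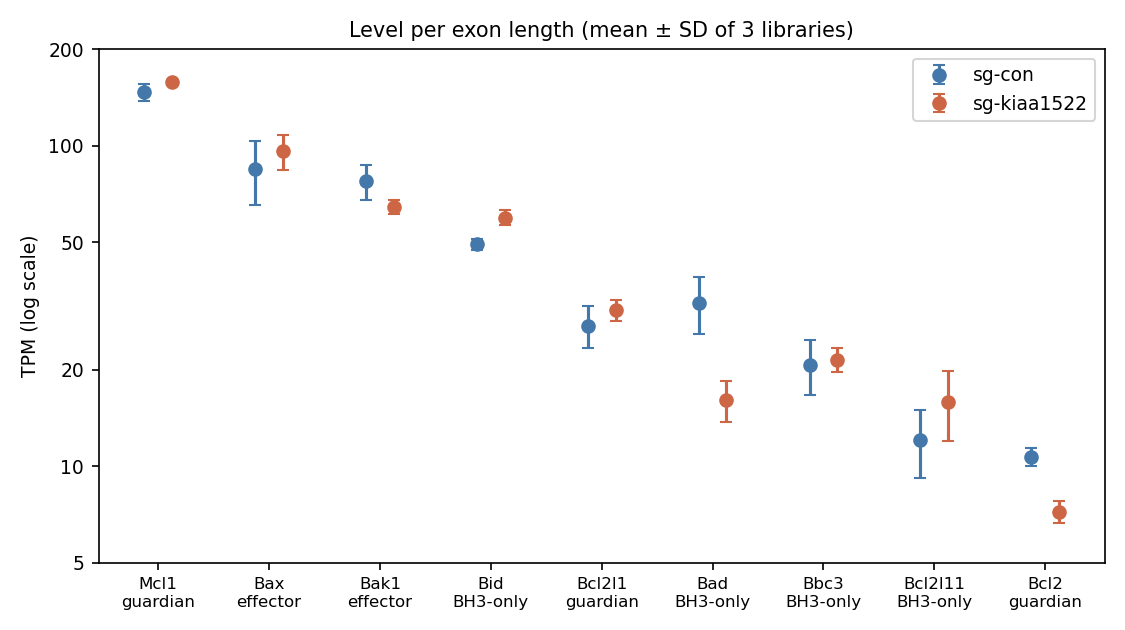
TPM (log axis) of the 9 members with more than 500 counts, as mean and SD of 3 libraries per group, ordered by the mean over the 6 libraries. Mcl1 is highest in both groups, at 147 and 158 TPM, and Bcl2 lowest, at 10.7 and 7.22 TPM.

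The ratio of an effector or activator to a guardian within a library needs no normalization. There were 1.05, 1.304 and 1.75 Bax counts per Bcl2 count in sg-con and 2.41, 2.23 and 2.23 in sg-kiaa1522. All sg-kiaa1522 libraries were higher, by 0.77 on the log2 scale (1.71-fold; two-sided exact permutation p = 0.1, as small as 3 against 3 can give, and 0.2 adjusted over 4 ratios). For Bcl2l11 to Bcl2 the ratios were 1.10, 1.14 and 0.742 in sg-con and 1.55, 1.69 and 2.60 in sg-kiaa1522. This ratio too did not overlap between groups and was 1.95-fold higher (exact two-sided permutation test, p = 0.1, adjusted 0.2). Bax to Bcl2l1 was 1.06, 0.903 and 1.20 in sg-con and 1.299, 1.04 and 0.915 in sg-kiaa1522, which overlapped (exact two-sided permutation test, p = 0.9, adjusted 0.9). Bax to Mcl1 was 0.206, 0.250 and 0.346 in sg-con and 0.326, 0.260 and 0.256 in sg-kiaa1522, which overlapped as well (exact two-sided permutation test, p = 0.8, adjusted 0.9). Both ratios that did not overlap between groups have Bcl2 as denominator, and the ratios to the more abundant guardians overlapped. Since Bcl2 is shared, the 2 ratios are not independent of each other or of its fall.

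**Figure D4:**
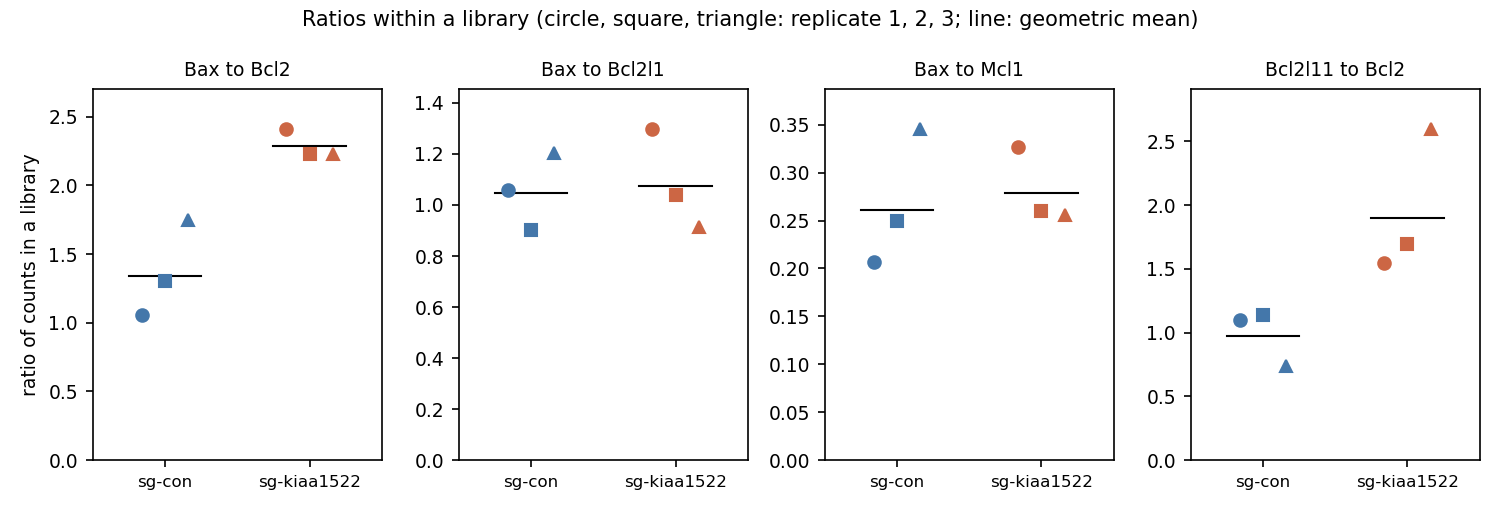
Ratio of counts within each library (vertical axes starting at 0) for Bax to Bcl2, Bax to Bcl2l1, Bax to Mcl1 and Bcl2l11 to Bcl2, 1 symbol per library and a line at the geometric mean of the group. Bax to Bcl2 reaches at most 1.75 in sg-con and at least 2.23 in sg-kiaa1522, while the groups overlap for Bax to Bcl2l1 and Bax to Mcl1.

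Of 16 other family genes, 7 were tested, of which 4 were lower and none higher (edgeR, 0 higher at an unadjusted p under 0.05 and 0 in DESeq2), against 26.3% in each direction over all tested genes. Bmf, a BH3-only gene whose protein is held at the cytoskeleton through dynein light chain, fell from 72.4 ± 4.9 to 45.8 ± 5.08 CPM (SD, n = 3, log2 fold change -0.66, adjusted p = 0.0015 in edgeR). Bcl2l12 fell from 10.9 ± 0.642 to 7.22 ± 0.585 CPM (log2 fold change -0.59, adjusted p = 0.0048 in edgeR). Bnip3l (-0.37) and Bnip3 (-0.24), whose proteins take part in the removal of mitochondria by autophagy, were also lower (adjusted p = 0.0031 and 0.027 in edgeR), and Bnip3 lost its call in 6 of 12 alternative fits. These were the filter of at least 1 count, the replicate block and the fits without sg-con replicate 3 or any 1 sg-kiaa1522 library (-0.25 to -0.21, adjusted p = 0.063 to 0.098 in edgeR). Bok, an effector-like gene, had a log2 fold change of -0.44 (adjusted p = 0.13 in edgeR), Bcl2l13 0.027 (adjusted p = 0.80) and Bcl2l2, which encodes the guardian BCL-W, 0.48 (adjusted p = 0.26), and none of them was called. Bok was highest in sg-con replicate 2 (137 CPM), was -0.12 without that library (adjusted p = 0.37 in edgeR) and was called without sg-con replicate 1 (-0.60, adjusted p = 0.044). Bcl2l2 ranged from 0.14 without sg-con replicate 2 to 0.73 without sg-con replicate 1 and was called in neither. The other 9 were too low to test. Bcl2a1a, Bcl2a1b, Bcl2a1c and Bcl2a1d, near-identical copies of an NFκB target gene, had at most 3 counts in any library, as did Bcl2l10, Bik and Hrk. Only fragments mapped to 1 place were counted, so those shared by the Bcl2a1 copies may be missing from these counts. Bcl2l14 had at most 11 counts and Bcl2l15 at most 9. Together with the members, 7 of 16 tested family genes were lower (43.8%) and none was higher (edgeR, 1 higher at an unadjusted p under 0.05 and 0 in DESeq2).

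Downstream of the family, 17 of 21 listed genes were tested, and 7 were lower and 3 higher (median log2 fold change -0.20), against 26.3% in each direction and a median of -0.0067 over all tested genes. The largest falls were those of Casp6, an executioner caspase (32.8 ± 3.32 to 18.97 ± 0.756 CPM, SD, n = 3, log2 fold change -0.79, adjusted p = 6.6e-04 in edgeR), Dffa, the inhibitor of the apoptotic DNase (-0.66, adjusted p = 0.0034) and Parp1, a caspase substrate in DNA repair (-0.41, adjusted p = 0.0015). Apaf1, the scaffold on which caspase-9 is activated, was higher (0.43, adjusted p = 0.033 in edgeR) but lost its call with the replicate block and without replicate 2 or 3 of either group (0.33 to 0.45, adjusted p = 0.068 to 0.098 in edgeR). Opa1, which shapes the mitochondrial inner membrane, rose by 0.43 on the log2 scale (adjusted p = 0.0056 in edgeR), and Aifm1, a mitochondrial flavoprotein, by 0.27 (adjusted p = 0.012). Without sg-con replicate 2, Aifm1 was not called (0.25, adjusted p = 0.057 in edgeR). Casp9 (0.28, adjusted p = 0.23 in edgeR), picked for naming after its value was seen, was not called, and was 0.082 without sg-con replicate 3. The channels of the outer membrane were also picked in that way. Vdac2, whose protein binds BAK1, fell (-0.34, adjusted p = 0.0029 in edgeR), as did Vdac3 (-0.28, adjusted p = 0.0094), and Vdac1 was called as lower (-0.20, adjusted p = 0.040). The call of Vdac1 was lost in 8 of 12 alternative fits, among them those without any 1 library except sg-con replicate 3 (-0.24 to -0.17, adjusted p = 0.057 to 0.12 in edgeR).

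Of 22 genes that act upstream of the BH3-only proteins, 19 were tested, and 6 were lower and 7 higher (68.4% called, median 0.059), against 26.3% in each direction and 52.5% in either over all tested genes (median -0.0067). Ddit3, which encodes the stress factor CHOP and can induce Bcl2l11, rose from 34.4 ± 5.41 to 63.7 ± 2.55 CPM (SD, n = 3, log2 fold change 0.89, adjusted p = 7.6e-04 in edgeR). Myc, which can sensitize cells to apoptosis, rose from 119 ± 3.31 to 206 ± 3.64 CPM (0.78, adjusted p = 6.7e-05 in edgeR). Foxo1, a transcription factor that can induce Bcl2l11, fell by 0.47 on the log2 scale (adjusted p = 0.0015 in edgeR). Dynll1, the dynein light chain that binds BIM, fell by 0.44 (adjusted p = 8.9e-04 in edgeR), and Mapk3, which encodes ERK1, by 0.39 (adjusted p = 0.0023).

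Among 30 names of genes for turnover and binding of family proteins, 27 were found and 26 tested, of which 5 were lower and 8 higher (median 0.080), against 26.3% in each direction over all tested genes (median -0.0067). Itpr2, a calcium channel of the endoplasmic reticulum whose family BCL2 binds, rose from 5.5 ± 0.39 to 33.9 ± 3.47 CPM (SD, n = 3, log2 fold change 2.62, adjusted p = 1.5e-05 in edgeR), and no other gene of the 4 lists passed a log2 fold change of 1 in size. Itpr1 rose by 0.88 (adjusted p = 0.0023 in edgeR), and Itpr3, named after its value was seen, by 0.23 (adjusted p = 0.045). The call of Itpr3 was lost in 7 of 12 alternative fits, among them those without any 1 library except sg-con replicate 1 (0.15 to 0.25, adjusted p = 0.076 to 0.12 in edgeR). Huwe1, a ligase that marks MCL1 for degradation, rose by 0.59 (adjusted p = 0.0034 in edgeR), and Usp9x, which removes such marks and was also named after its value was seen, by 0.58 (adjusted p = 0.011). Of the adaptors that hold phosphorylated BAD in the cytosol, Ywhab fell by 0.61 on the log2 scale (adjusted p = 2.1e-04 in edgeR) and Ywhae by 0.23 (adjusted p = 0.016), whereas Ywhag, named after its value was seen, rose by 0.37 (adjusted p = 0.0019). The call of Ywhae was lost with the replicate block and without sg-con replicate 2 or sg-kiaa1522 replicate 1 or 3 (-0.23 to -0.21, adjusted p = 0.052 to 0.067 in edgeR). The other tested adaptors of this family, also named after their values were seen, were not called. They were Ywhah (0.053, adjusted p = 0.47 in edgeR), Ywhaq (-0.26, adjusted p = 0.39) and Ywhaz (-0.27, adjusted p = 0.097). Bag1, a chaperone partner of BCL2, fell by 0.37 (adjusted p = 0.012 in edgeR), and by 0.33 without sg-kiaa1522 replicate 3, where it was not called (adjusted p = 0.051). Over the 4 lists, 58.0% of the 69 tested genes were called, against 52.5% of all tested genes.

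**Figure D5:**
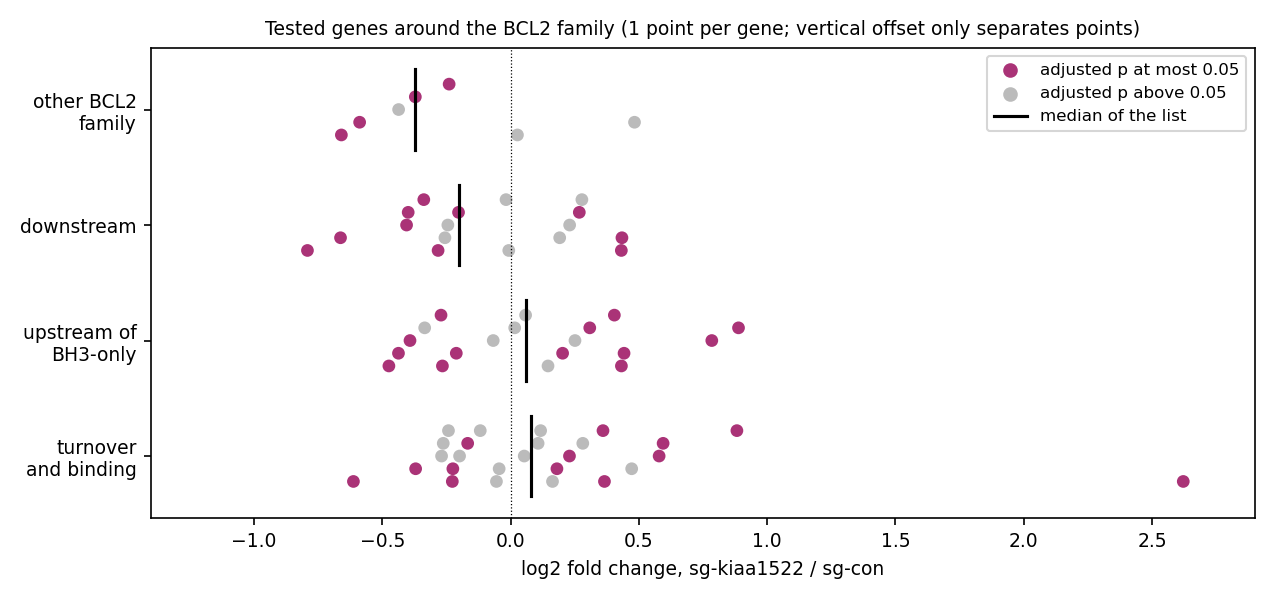
Log2 fold change (horizontal axis, sg-kiaa1522 over sg-con) of the 69 tested genes of the 4 lists, 1 point per gene, with a vertical line at the median of each list. Called genes lie on both sides of 0 in every list except the other BCL2 family genes, where the 4 called genes are lower, and Itpr2 stands alone at 2.62.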

How the data were processed

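RNA of 6 libraries of 889 cells was sequenced. According to the study's methods and the submitters' processing notes, Seqtk removed adaptors and rRNA reads, HISAT2 2.0.4 mapped the rest to GRCm38 and fragments mapped to 1 place were counted by StringTie 1.3.0. The deposited values are raw counts, as integers, of each Ensembl gene, and the authors had not normalized them. The annotation release and the use of strand in counting are not given in the sources used here.

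The 10 members and the 4 gene lists were chosen with earlier results of these data known. Members and all genes of the list of other family genes are named, and in the other lists the 3 called genes with the largest change in each direction. Genes named outside this rule are marked. Some genes of the lists are not reported here by name. Also named are the targeted gene, genes whose exons overlap a member and the 3 genes most like the member with the smallest adjusted p.

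The test was run on genes whose counts sum to more than 500 (10046 of 34745, holding 99.5% to 99.6% of a library) with edgeR 4.0.16 (quasi-likelihood, TMM, Benjamini-Hochberg, R 4.3.3), without covariates. The TMM factors ranged from 0.989 to 1.01. The limit that 0 counts allow (3 counts) is 0.162 to 0.247 CPM. Exon lengths and positions came from GENCODE M21, to which 34267 gene identifiers matched. Alternatives were DESeq2 1.42.0, RLE factors, library size alone, 2 other filters, the replicate block, each library left out in turn and the fold change threshold of the methods. On simulated counts of 10046 genes, edgeR recovered 50 of 50 genes changed by 1 on the log2 scale and 20 of 50 changed by 0.5, and called 7 unchanged genes. The simulation changed 50 genes at each of the sizes 0.5, 1, 2 and 3 and gave all genes the same dispersion. In the data 52.5% of tested genes were called, so the recovery in the simulation is not that of this comparison. No pair of libraries of a group was within sampling noise of each other (chi-square at least 12.3 times its degrees of freedom). No protein sequences were used.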

Additional observations from a re-analysis of the deposited data

How the results depend on the processing

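Bad stayed called and lower under every alternative run, and Bcl2 under all but the threshold of 1 on the log2 scale. Of the members, 3 were lower under each change of test, normalization or filter and with the replicate block. With libraries left out in turn it was 2 to 3, since Bak1 ranged from -0.47 to -0.27 and was called in 1 of these 6 fits. That threshold left 1 lower member, 0 lower and 1 higher list gene (Itpr2), and 436 lower and 275 higher of all genes, against 2639 and 2638. Without each library in turn, 2083 to 2962 genes were lower and 2062 to 2970 higher. Without each library in turn, the log2 fold change ranged from -0.077 to 0.14 for Bcl2l1, -0.0062 to 0.039 for Mcl1, -0.047 to 0.29 for Bax, -0.19 to 0.12 for Bbc3 and -0.043 to 0.088 for Bcl2l13, all crossing 0 and none called. Likewise the log2 difference ranged from -0.10 to 0.15 for the Bax to Bcl2l1 ratio and from -0.075 to 0.30 for Bax to Mcl1. List genes called lower numbered 22, and 14 to 22 without each library in turn, with 14 when sg-kiaa1522 replicate 3 was left out.

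Libraries of both groups carry the numbers 1 to 3, but same-numbered libraries did not deviate together (correlations of -0.24, -0.053 and -0.17 across genes), so the numbers do not pair them. With the replicate block, 2111 genes were lower and 2109 higher, 14 list genes were lower, and the log2 fold changes were -0.66 for Bcl2 (adjusted p = 0.0052 in edgeR), -1.10 for Bad (0.0068) and -0.35 for Bak1 (0.042).

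With the mean transcript length, mean levels were 125 TPM for Mcl1, 113 for Bax, 80.3 for Bid, 48.6 for Bak1, 46.4 for Bcl2l1, 27.0 for Bcl2l11 and 25.7 for Bbc3. With 3 libraries a group, members that were not called may differ by amounts within their intervals. The simulated counts do not give the size of change that can be missed here, because far fewer of their genes were changed. Pmaip1 and 9 other family genes were too low to test.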
